A study of Mus musculus with 6 samples.

Results

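The 9 genes described here cover both ends of cholesterol handling in a cell. Hmgcs1, Idi1, Fdft1, Sqle and Lss encode enzymes of cholesterol synthesis, Srebf2 and Insig1 encode its regulators, and Abca1 and Abcg1 encode exporters. They were taken by symbol from a table of 34745 genes. Each symbol occurred once in the table, and all 9 passed the filter on low counts, as did 13692 genes in all. RNA came from liver sinusoidal endothelial cells (LSECs), the fenestrated endothelium of the liver's capillaries, and was read by mRNA sequencing. One group was Tgfbr2f/f mice (f/f), whose Tgfbr2 alleles carry loxP sites, and the other was their Tgfbr2 ECKO littermates, labelled as an endothelial-specific knockout of the type II TGF-beta receptor. Mice of both genotypes received carbon tetrachloride (CCl4), a liver toxin that causes fibrosis, by intraperitoneal injection 2 times a week for 6 weeks, and each genotype had 3 libraries. No group without CCl4 was analysed here. The sources used here do not give the driver of the Cre recombinase, the age of the mice or the way the LSECs were isolated.

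Cells make cholesterol from acetyl-CoA through the mevalonate pathway, and the transcription factor SREBP2, the product of Srebf2, raises the genes of this pathway when sterols run low in the endoplasmic reticulum. INSIG proteins hold SREBP and its escort SCAP in that compartment when sterols are plentiful. Under the same sterol-rich state the nuclear receptors LXR, which bind oxysterols, raise the exporters ABCA1 and ABCG1, which pass cholesterol to apolipoprotein A-I and to HDL. Hepatocytes carry out much of the body's cholesterol synthesis, while LSECs are known for the uptake of modified lipoproteins through scavenger receptors.

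SREBP2 acts through sterol regulatory elements close to gene starts, usually beside sites for NF-Y, which binds CCAAT boxes. RefSeq promoters on GRCm38.p6, from 250 bases before to 50 bases after a gene's start, were at hand for 6 of the 9 genes (Hmgcs1, Idi1, Lss, Srebf2, Insig1 and Abca1). The form TCACNCCAC of the sterol regulatory element, searched on both strands, was present in 1 of the 6 and in 1.24% of all 32851 promoters. The CCAAT box, CCAAT on either strand, was present in 5 of the 6 and in 37.4% of all promoters. The stretch from 160 to 31 bases before the RefSeq start is printed for 3 genes of the synthesis side. They were taken because the TMM-scaled levels of the first pair did not overlap between the groups and those of the third did. Capitals mark the matches to these motifs on either strand. The windows are printed as the plus strand of the genome, at chr13:119690191-119690320 for Hmgcs1, chr15:82147109-82147238 for Srebf2 and chr13:8885446-8885575 for Idi1.
Hmgcs1: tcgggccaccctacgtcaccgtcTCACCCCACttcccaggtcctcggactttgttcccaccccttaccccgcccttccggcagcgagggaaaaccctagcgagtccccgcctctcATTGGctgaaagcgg
Srebf2: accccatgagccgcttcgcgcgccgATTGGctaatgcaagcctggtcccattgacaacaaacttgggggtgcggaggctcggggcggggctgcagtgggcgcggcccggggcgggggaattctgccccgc
Idi1: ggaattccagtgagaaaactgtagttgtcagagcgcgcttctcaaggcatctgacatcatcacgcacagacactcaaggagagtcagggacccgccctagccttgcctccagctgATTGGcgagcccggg
The match to the sterol regulatory element in Hmgcs1 began 137 bases before the start, and a CCAAT box on the other strand began 45 bases before it. The Srebf2 and Idi1 windows each held 1 CCAAT box and no match to TCACNCCAC. Both windows run past the gene start in the GENCODE vM21 annotation, 82147181 for Srebf2 and 8885501 for Idi1. By that annotation part of each lies inside the gene. No binding was measured, so a match is a description of the sequence.

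The libraries held 17171850 to 25062755 counts. Markers of sinusoidal endothelium were 13 genes such as Stab2 and Clec4g. They summed to 26402 to 30723 CPM (counts relative to the TMM-scaled library total) in f/f and 29374 to 34488 CPM in ECKO-labelled libraries. All 13 were detected in every library, and by the test 2 were higher in ECKO-labelled libraries and 0 lower. Their median log2 fold change was 0.29. The 16 hepatocyte markers summed to 1198 to 2138 CPM and 1275 to 2356 CPM, with 0 of 16 passing the test and a median log2 fold change of 0.47. The 14 stellate cell markers summed to 2177 to 3486 CPM in f/f and 1052 to 1597 CPM in ECKO-labelled libraries, and 8 of the 14 fell. The summed markers of B cells (23.5 to 53.7 and 8.02 to 15.9 CPM) and cholangiocytes (215 to 607 and 142 to 190 CPM) also did not overlap, with 3 of 6 and 0 of 6 genes lower by the test. Summed monocyte markers, 55.1 to 151 CPM in f/f and 45.2 to 57.3 CPM in ECKO-labelled libraries, overlapped. None of the 7 monocyte markers tested passed, and their median log2 fold change was -1.73. Transcripts of the mitochondrial genome took 11.5% to 23.5% of counts in f/f and 19.7% to 32.4% in the other group. Tgfbr2 itself stood at 427 ± 35.1 CPM in f/f and 499 ± 12.1 CPM in ECKO-labelled libraries (mean ± SD over 3 libraries). Its log2 fold change was 0.22 with an edgeR adjusted p = 0.228, and -0.02 under total count scaling. Since the deleted part of the gene is not named, total gene counts do not check the genotype, and every direction below is that of the label. The labels do not say whether each library is a separate mouse, so p-values measure the spread between libraries, which may be technical. In a bulk sample fewer cells of a type and less RNA per cell cannot be told apart.

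Of the 9 genes, none passed an adjusted p of 0.05 in the main test, edgeR's quasi-likelihood test with adjustment over all genes, against 4.03% of all genes tested (1.24% higher and 2.79% lower). At an unadjusted p under 0.05 the test held 4 of the 9, Sqle, Hmgcs1, Fdft1 and Srebf2, all with lower values in ECKO-labelled libraries. Of all 13692 genes it held 23.5% in either direction, 1427 higher and 1787 lower. The same 4 genes had groups that did not overlap, against 30.9% of all genes. The log2 fold changes were negative for 8 of the 9 and ran from -1.23 for Sqle to 0.04 for Abca1. Their median was -0.45 beside 0.01 for all genes tested. The 9 were chosen with earlier results of these data known, so this contrast is a description. The median of the 9 was -0.22 without f/f replicate 1 and -0.25 without ECKO replicate 3, beside 0.02 and 0.01 for all genes. DESeq2 called 2 of the 9 lower, where it called 7.58% of all genes lower, and limma-voom called 0. Without mitochondrial genome transcripts, a fit added after seeing the data, Sqle stood at -1.23, Hmgcs1 at -0.63 and again none of the 9 passed. The part of the hepatocyte, stellate, monocyte, B cell and cholangiocyte markers in these differences was not tested.

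**Figure D1:**
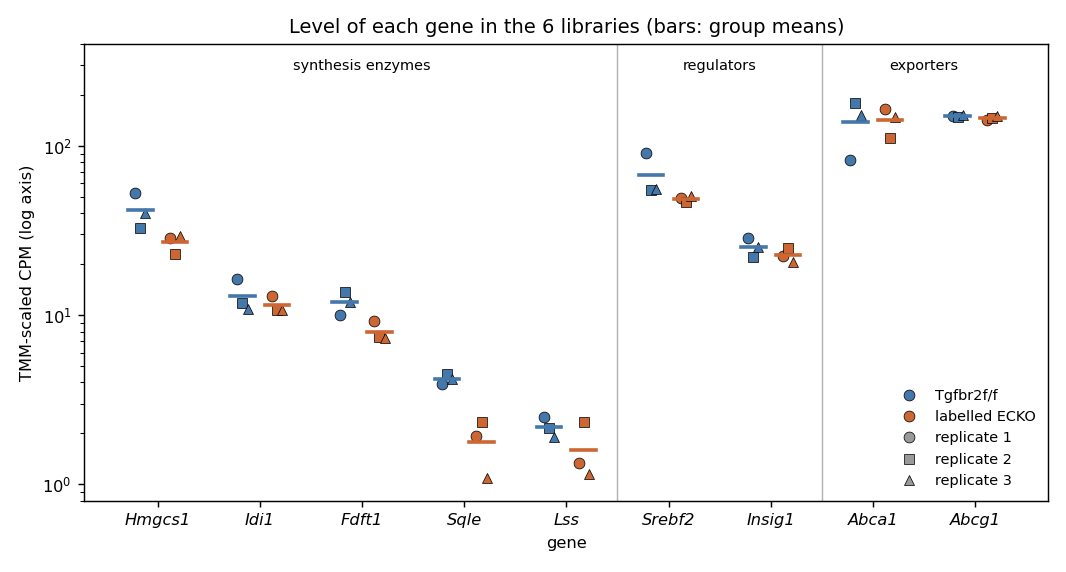
Level of each of the 9 genes in every library, in TMM-scaled CPM on a log axis, with blue for Tgfbr2f/f, orange for libraries labelled ECKO, a marker shape for each replicate and bars at the group means. The groups did not overlap for Hmgcs1, Fdft1, Sqle and Srebf2, and the Abcg1 points lay between 143 and 151 CPM.

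Sqle encodes squalene epoxidase, the oxygen-dependent enzyme that commits squalene to sterols. Sqle (ENSMUSG00000022351, chromosome 15, 59315077 to 59331192, plus strand, mm10/GRCm38) had 3.93, 4.47 and 4.18 CPM in f/f replicates 1, 2 and 3 and 1.93, 2.32 and 1.09 CPM in ECKO-labelled libraries. Every f/f library was above every library of the other group, with the f/f values close together and ECKO replicate 3 lowest. The counts behind these values were 94, 91 and 101 against 29, 40 and 19. The log2 fold change was -1.23 (SE 0.31), the largest in size of the 9, with a 95% interval of -1.95 to -0.52 and an edgeR adjusted p = 0.0680. DESeq2 put it past the threshold (adjusted p = 0.00645).

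Hmgcs1 encodes the cytosolic HMG-CoA synthase, which joins acetyl-CoA and acetoacetyl-CoA early in the mevalonate pathway. Hmgcs1 (ENSMUSG00000093930, chromosome 13, 119690462 to 119708086, plus strand) had 52.4, 32.9 and 40.3 CPM in f/f and 28.7, 23.1 and 29.4 CPM in ECKO-labelled libraries. The groups did not overlap, but f/f replicate 2 stood only a little above the highest ECKO library. The means were 41.9 ± 9.83 and 27.0 ± 3.46 CPM (SD, n = 3 each). The log2 fold change was -0.63 (SE 0.18, 95% interval -1.06 to -0.21, edgeR adjusted p = 0.0977). It also was past the threshold in DESeq2, with an adjusted p of 0.0297.

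Fdft1 encodes squalene synthase, which joins farnesyl units into squalene and so directs the pathway from isoprenoids to sterols. Fdft1 (ENSMUSG00000021273, chromosome 14, 63145153 to 63177793, minus strand) had 10.1, 13.7 and 12.0 CPM in f/f and 9.25, 7.44 and 7.28 CPM in ECKO-labelled libraries. Here f/f replicate 1 was the lowest of its group, close to ECKO replicate 1. The log2 fold change was -0.58 (SE 0.18, 95% interval -0.99 to -0.17, edgeR adjusted p = 0.110). Its exons share 774 of 4227 bases with Ctsb, the gene of the lysosomal protease cathepsin B on the other strand, and the counting is not stated to use strand, so the reads of the overlap cannot be told apart. Ctsb had a much higher level, 1452 ± 79.1 CPM in f/f and 1562 ± 136 CPM in ECKO-labelled libraries, with a log2 fold change of 0.11 (edgeR adjusted p = 0.591).

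Idi1 encodes isopentenyl diphosphate isomerase, which balances the building blocks of isoprenoids, and Lss encodes lanosterol synthase, which closes squalene epoxide into the first sterol. Idi1 (ENSMUSG00000058258, chromosome 13, 8885501 to 8892451, plus strand) had 16.4, 11.7 and 10.9 CPM in f/f and 13.0, 10.7 and 10.7 CPM in ECKO-labelled libraries. Replicate 1 was the highest of either group and the groups overlapped (log2 fold change -0.19, 95% interval -0.63 to 0.26, edgeR adjusted p = 0.587). Lss (ENSMUSG00000033105, chromosome 10, 76531588 to 76557138, plus strand) had 2.51, 2.16 and 1.91 CPM in f/f and 1.33, 2.32 and 1.15 CPM in ECKO-labelled libraries. ECKO replicate 2 lay among the f/f values, and with 20 to 60 counts a library the interval was wide, from -1.26 to 0.36 around -0.45 (edgeR adjusted p = 0.467). Lss stood at -0.82 without ECKO replicate 2 and at -0.25 without ECKO replicate 3, and Idi1 at -0.29 without f/f replicate 3. Neither gene's difference was larger than the spread between libraries.

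Srebf2 encodes SREBP2 itself and is a target of its own product. Srebf2 (ENSMUSG00000022463, chromosome 15, 82147266 to 82205376, plus strand) had 91.1, 55.0 and 56.0 CPM in f/f and 49.1, 46.4 and 50.4 CPM in ECKO-labelled libraries. F/f replicate 1 was far above all others, and the other f/f libraries were only a little above the ECKO values. The log2 fold change was -0.47 (SE 0.20, 95% interval -0.93 to -0.01, edgeR adjusted p = 0.205), and without f/f replicate 1 it was -0.18 (adjusted p = 0.310). Insig1, one of the strongest sterol-responsive genes and the brake on SREBP2, had 28.4, 22.1 and 25.1 CPM in f/f and 22.4, 24.8 and 20.6 CPM in ECKO-labelled libraries. Insig1 (ENSMUSG00000045294, chromosome 5, 28071363 to 28078662, plus strand) overlapped between the groups, with a log2 fold change of -0.16 (95% interval -0.47 to 0.15, edgeR adjusted p = 0.506). With f/f replicate 1 left out Insig1 stood at -0.06, with f/f replicate 2 left out at -0.25, and with ECKO replicate 3 left out at -0.09.

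Abcg1 encodes the exporter that loads cholesterol onto HDL. Abcg1 (ENSMUSG00000024030, chromosome 17, 31057698 to 31115777, plus strand) had 151, 147 and 151 CPM in f/f and 143, 147 and 150 CPM in ECKO-labelled libraries. All 6 values lay close together and overlapped, and the log2 fold change was -0.03 with a narrow 95% interval of -0.23 to 0.16 (edgeR adjusted p = 0.839). On the linear scale that interval runs from 0.854 to 1.12 times the f/f level. Abca1, the exporter that starts HDL formation on apolipoprotein A-I and whose loss causes Tangier disease, was far more variable. Abca1 (ENSMUSG00000015243, chromosome 4, 53030787 to 53159895, minus strand) had 83.1, 179 and 152 CPM in f/f and 166, 111 and 147 CPM in ECKO-labelled libraries. F/f replicate 1 was lowest and f/f replicate 2 highest of all 6, so the ECKO values fell inside the f/f range. The log2 fold change was 0.04 with an interval of -0.64 to 0.71 (edgeR adjusted p = 0.951), which spans 0.640 to 1.64 times the f/f level, so the data bound Abca1 much less tightly than Abcg1.

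One f/f library shaped several of these values. On TMM-scaled CPM, Hmgcs1, Idi1, Lss, Srebf2 and Insig1 were at their highest of the 6 libraries in f/f replicate 1. Abca1 was at its lowest there, while Sqle and Fdft1 were at the low end of f/f. On CPM by total count Insig1 was instead highest in f/f replicate 3 and Lss in f/f replicate 2. F/f replicate 1 also had the highest mitochondrial share of its group, 23.5% against 14.2% and 11.5%. Its summed hepatocyte markers were the highest of its group, 2138 CPM against 1198 and 1372. The part of the mitochondrial share and of these markers in the levels was not tested. Without f/f replicate 1 the log2 fold change of Idi1 turned from -0.19 to 0.02 and that of Abca1 from 0.04 to -0.22 (it was -0.09 without ECKO replicate 1). That of Hmgcs1 went from -0.63 to -0.43, while Sqle stood at -1.27 and Fdft1 at -0.68.

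The scaling of libraries moved all 9 genes. Under total count scaling the median log2 fold change of all genes was -0.22, and 4 of the 9 were called lower (Hmgcs1, Fdft1, Sqle and Srebf2; edgeR adjusted p = 0.0106, 0.0463, 0.0287 and 0.0230), where 8.83% of all genes were. Relative to the median of all genes, the median of the 9 was -0.43 under that scaling and -0.46 in the main test. On CPM by total count the groups did not overlap for 6 of the 9, the 4 above with Idi1 and Insig1, against 29.7% of all genes. Abca1 turned to -0.26 under total count scaling and Abcg1 stood at -0.27, close to the median of all genes. On the deposited FPKM, which scale fragments to gene length and library total, limma on log2(FPKM + 1) tested 7 of the 9 and called Hmgcs1 lower (-0.77, adjusted p = 0.0222), where it called 4.1% of all genes lower. The median of these 7 relative to that of all genes was -0.19. Sqle and Lss were under the FPKM filter.

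**Figure D2:**
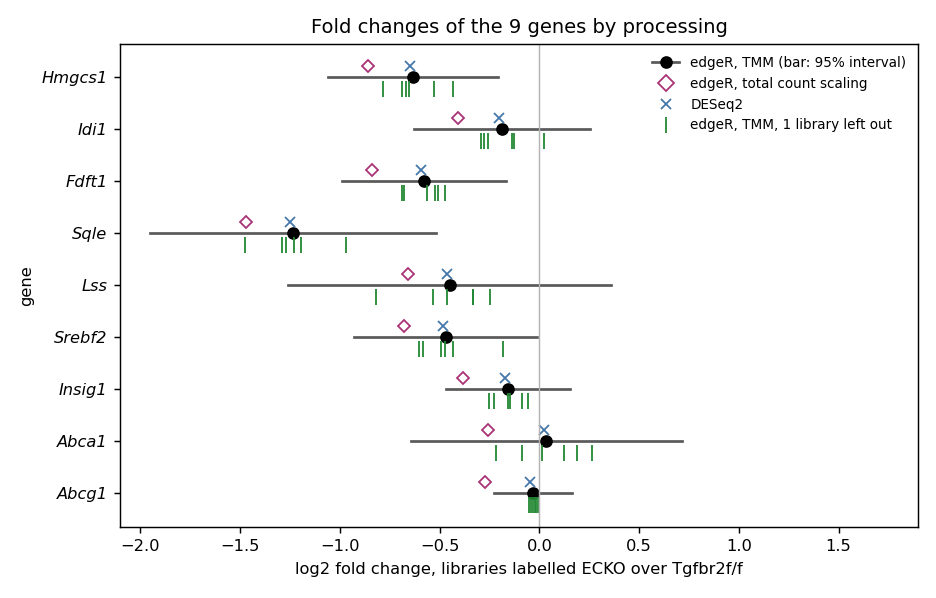
Log2 fold change of each of the 9 genes, libraries labelled ECKO over Tgfbr2f/f, by edgeR with TMM scaling (black point, bar the 95% interval), by edgeR with total count scaling (open diamond), by DESeq2 (cross) and with 1 library left out (green ticks). Sqle, Hmgcs1, Fdft1 and Srebf2 have intervals below 0, the ticks of Idi1 and Abca1 fall on both sides of 0, and those of Abcg1 stay between -0.05 and -0.01.

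Compared per length, on the deposited FPKM, the exporters led. In f/f Abcg1 had 38.8 ± 3.98 FPKM, followed by Abca1 with 14.6 ± 6.32, Srebf2 with 14.4 ± 2.63 and Hmgcs1 with 13.9 ± 1.92 FPKM (SD, n = 3 each), and the ranges of these last 3 overlapped. Insig1 (7.88 ± 0.527), Fdft1 (4.58 ± 1.10), Idi1 (2.91 ± 0.317), Sqle (0.536 ± 0.0866) and Lss (0.128 ± 0.00787 FPKM) came after, each without overlap with its neighbour. In ECKO-labelled libraries the order was the same, from 32.2 ± 3.49 FPKM for Abcg1 to 0.0814 ± 0.0388 FPKM for Lss, with Srebf2 (8.98 ± 0.680), Hmgcs1 (7.67 ± 0.709) and Insig1 (6.05 ± 0.996 FPKM) each overlapping the next. Abca1 had 12.2 ± 1.43, Fdft1 2.56 ± 0.163, Idi1 2.19 ± 0.10 and Sqle 0.193 ± 0.0768 FPKM there. Sqle and Lss, which act one after the other, were the lowest of the 9 in either group. The order rests on the gene lengths behind the deposited values. These were 18461 bases for Lss and 8554 for Sqle, where GENCODE vM21 on GRCm38 gives 10787 and 5546 bases of exons. With the GENCODE lengths Sqle and Lss stayed last, Idi1 came before Fdft1 in both groups, and Insig1 came before Srebf2 and Hmgcs1 in ECKO-labelled libraries.

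The 16 other enzymes of the synthesis pathway showed no common direction. None passed the main test, beside 4.03% of all genes. At an unadjusted p under 0.05 the test held 2 higher and 2 lower of the 16, beside 23.5% of all genes in either direction. Their log2 fold change was positive for 7 and negative for 9, with a median of -0.07. Ebp, a sterol isomerase, had 25.5, 29.1 and 31.9 CPM in f/f and 35.8, 40.6 and 36.3 CPM in ECKO-labelled libraries. Its groups did not overlap, as was so for 30.9% of all genes. The value was higher in the second group (log2 fold change 0.38, SE 0.12, edgeR adjusted p = 0.114). Over all 21 synthesis enzymes the median log2 fold change was -0.19, with 14 negative and 7 positive. The 5 enzymes described above, all negative, had a median of -0.58. These 5 were chosen with earlier results of these data known, so the contrast with the 16 others is a description.

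Ratios within a library, into which no library scaling enters, set Hmgcs1 and Sqle against Abcg1, the steadier of the exporters. These pairs were chosen after their values were seen, and ratios of Fdft1, Idi1 and Lss are not given. Idi1 and Lss overlapped between the groups in CPM. Since Abcg1 itself differed little (log2 fold change -0.03), the ratios largely repeat the differences in CPM. Hmgcs1 counts per 100 Abcg1 counts were 34.7, 22.4 and 26.7 in f/f and 20.1, 15.7 and 19.6 in the other group, without overlap. For Sqle they were 2.60, 3.04 and 2.77 against 1.35, 1.58 and 0.728, again without overlap. The ratios show only that the genes of each pair differed unequally between the groups.

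Among 7 other genes of SREBP control, including Scap, Srebf1 and the site proteases Mbtps1 and Mbtps2, none passed in either direction and the median log2 fold change was 0.03. The 2 with the smallest p were Insig2 (0.24, edgeR adjusted p = 0.269), the sterol sensor related to Insig1, and Mbtps2 (-0.28, edgeR adjusted p = 0.421), a membrane protease that releases SREBP. Mbtps2 stood at -0.08 without ECKO replicate 2, its lowest library, and at -0.47 without ECKO replicate 3.

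Of 11 genes of cholesterol uptake and transport inside the cell, only Mylip passed the main test, as higher. The other 10 did not pass in either direction, and the median log2 fold change was -0.10. At an unadjusted p under 0.05 the test held 1 higher and 3 lower, beside 23.5% of all genes in either direction. A positive log2 fold change was seen for 4 and a negative one for 7. Mylip encodes the ubiquitin ligase IDOL, which LXR is known to raise and which marks lipoprotein receptors for breakdown. Mylip had 351, 431 and 349 CPM in f/f and 692, 604 and 623 CPM in ECKO-labelled libraries. All ECKO libraries were above all f/f libraries, from a mean of 377 ± 46.5 to 640 ± 46.0 CPM. The log2 fold change was 0.76 (SE 0.12, 95% interval 0.48 to 1.04, edgeR adjusted p = 0.0234). The gene no longer passed when f/f replicate 3 was left out (0.72, edgeR adjusted p = 0.105), ECKO replicate 1 (0.71, adjusted p = 0.0957) or ECKO replicate 3 (0.79, adjusted p = 0.0735). Nor did Mylip pass in edgeR under total count scaling (0.51, adjusted p = 0.0770). By limma on FPKM it stood at 0.53 with a pseudocount of 1 or 0.1 and did not pass (adjusted p = 0.130 and 0.128).

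**Figure D3:**
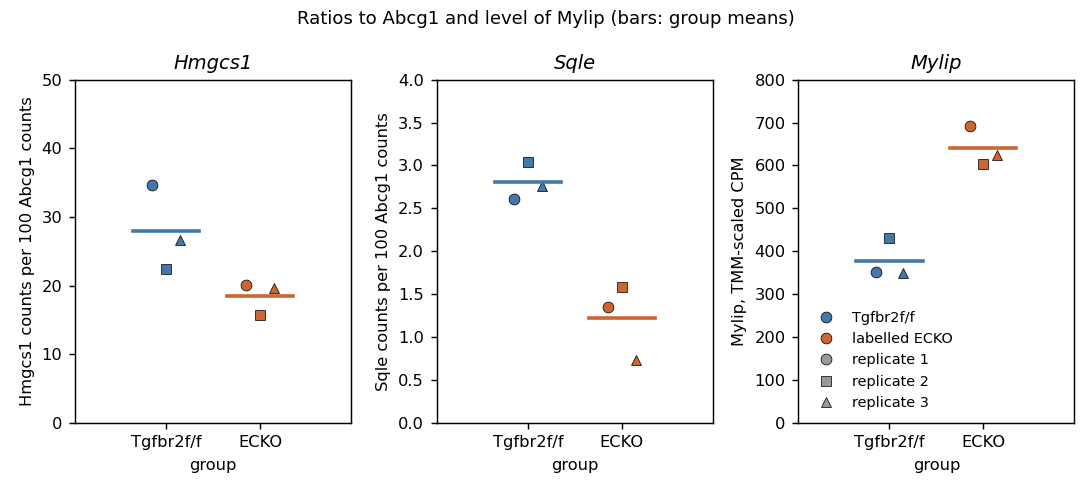
Counts of Hmgcs1 (left) and of Sqle (middle) per 100 Abcg1 counts and the TMM-scaled CPM of Mylip (right) in each library, all on axes from 0, with blue for Tgfbr2f/f, orange for libraries labelled ECKO, marker shapes for replicates and bars at group means. Every Tgfbr2f/f library lies above the other group for both ratios, and Mylip is higher in all 3 libraries labelled ECKO, at 604 to 692 CPM against 349 to 431.

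Among 15 other genes of LXR signalling, efflux, cholesterol ester storage and oxysterol metabolism, 13 were tested and none passed, with a median of -0.04. No gene of the 13 had an unadjusted p under 0.05, beside 23.5% of all genes. Abcg4 and Abcg8, further sterol transporters, were under the filter with 3 to 15 counts a library. Apoe, an apolipoprotein and LXR target, had 1710 ± 473 CPM in f/f and 1659 ± 357 CPM in ECKO-labelled libraries. The smallest p-values belonged to Soat2, a cholesterol esterifying enzyme (-0.89, edgeR adjusted p = 0.226), and Cyp7b1, an oxysterol hydroxylase (-0.48, edgeR adjusted p = 0.228, and -0.31 without ECKO replicate 1). So Mylip, at 0.76, stood beside Abca1 at 0.04 and Abcg1 at -0.03, which LXR is also known to raise; the difference between these genes was not tested.

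Of the genes outside the pathway, the one whose pattern over the 6 libraries was most like the mean of the 5 synthesis enzymes was Ehhadh, an enzyme of fatty acid oxidation in peroxisomes. Its Pearson r was 0.995 over 6 libraries, with a fall from 25.8 ± 4.46 to 13.9 ± 1.63 CPM (edgeR adjusted p = 0.0314). Rps6ka1, Rbfox2, Pqlc1 and Sec14l1 followed with r of 0.991 to 0.983. Of 10256 genes compared, 145 had an r over 0.9, and the points share their libraries and the genotype difference, so r is a description. Between the 5 enzymes themselves r ran from 0.205 for Idi1 with Fdft1 to 0.858 for Fdft1 with Sqle. Their mean is therefore not a pattern that all 5 shared.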

How the data were processed

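The deposited table gives, per gene and library, a column headed count and a column headed FPKM. The counts were taken as raw. The submitters' processing notes name HISAT2 2.0.4, StringTie 1.3.0, mm10 and GRCm38.p4, with no role. The sources used here do not give the counter, annotation or strand setting. Symbols and loci are those of the table.

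The main test used edgeR 4.0.16 in R 4.3.3: filterByExpr (minimum count 10, minimum total 15), TMM scaling, robust quasi-likelihood F-test with genotype as the only term, two-sided, Benjamini-Hochberg adjustment over all 13692 genes, threshold 0.05. SE is the absolute log2 fold change over the square root of F, and 95% intervals use the test's degrees of freedom. CPM values are TMM-scaled. The smallest exact permutation p that 3 libraries a group allow is 0.1. The script was checked on simulated counts. Alternatives were total count scaling, RLE, DESeq2 1.42.0, limma-voom (limma 3.58.1), no filter, a replicate block, limma on FPKM (at least 0.5 in 3 libraries, pseudocount 1 or 0.1) and leaving out each library. A fit without mitochondrial transcripts was added after seeing the data. Numbers 1 to 3 in the titles are not said to pair mice.

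The members and lists were chosen with earlier results of these data known. Named pathway genes were those past the threshold or the 2 smallest p per list. Some of these are not reported here. Apoe and Ctsb were named after their values were seen. Like genes needed a mean of 5 CPM. Intervals cover the spread between libraries. RefSeq and GENCODE vM21 gave sequences and exon lengths.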

Additional observations from a re-analysis of the deposited data

How the results depend on the processing

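Over all genes tested, 170 were higher and 382 lower; total count scaling gave 63 and 1209, DESeq2 470 and 1038, limma-voom 191 lower, and FPKM 40 higher with a pseudocount of 1 and 43 with 0.1. Leaving out each library gave 14 to 246 higher and 21 to 766 lower. The cause was not tested. Of the 9 genes, total count scaling called Hmgcs1 (-0.86), Fdft1 (-0.84), Sqle (-1.47) and Srebf2 (-0.68), DESeq2 called Hmgcs1 (-0.65) and Sqle (-1.25), and FPKM called Hmgcs1 (-0.77 and -0.84 by pseudocount). None passed without any 1 library, where fewer libraries entered the test. Idi1 then ran from -0.29 to 0.0228 and Abca1 from -0.22 to 0.26. Abca1 was -0.26 under total count scaling and -0.15 on FPKM under both pseudocounts (-0.146 and -0.148). By total count scaling Tgfbr2 was -0.0248 and Insig2 -0.00733; Tgfbr2 on FPKM was -0.0105 and -0.0104. In the list of other synthesis enzymes 1 gene was called lower by total count scaling, DESeq2 and FPKM. In the uptake list 0 were higher under total count scaling and FPKM and 0 to 1 without 1 library, and 2 were lower under total count scaling, DESeq2 and FPKM, against 0 to 1 without 1 library. The replicate block changed no call of the 9 genes (Sqle -1.28, Hmgcs1 -0.61) and gave 131 higher and 285 lower. Deviations from the group mean correlated at 0.104, 0.164 and -0.03 between same-numbered libraries. With 3 libraries a group these values cannot decide whether the numbers pair them. RLE, no filter and the fit without mitochondrial transcripts changed no call or direction of the 9. Depth limits Sqle and Lss, with 19 to 101 and 20 to 60 counts a library.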
